A study of Solanum lycopersicum with 24 samples.

Results

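The ASR cluster is a short stretch of tomato chromosome 4 that holds the gene ASR1 (Solyc04g071610) and its neighbours Solyc04g071590 and Solyc04g071615. N1-methyladenosine (m1A), adenosine with a methyl group on its base-pairing face, was mapped there by immunoprecipitating fragmented fruit RNA with an m1A antibody and listing the regions enriched in each library as peaks. All peaks of the 3 loci were taken from the mRNA peak lists, together with all peaks of the circular RNA (circRNA) whose listed host is Solyc04g071590. That gave 25 of 3852 mRNA peaks and 25 of 434 circRNA peaks. ASR1 had 23 mRNA peaks, Solyc04g071615 had 2 and Solyc04g071590 had 0.

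The peak lists come from 12 immunoprecipitated (IP) libraries in 4 groups of 3 biological replicates. Nr O and Nr G are fruit of Never-ripe (Nr), homozygous for an ethylene receptor mutation. Nr O is the late stage, 6 days after breaker, when the mutant is orange. Nr G is the green stage, at approximately 39 days post-anthesis. AC Br+6 and AC MG are the wild type Ailsa Craig, the background that Nr shares, red ripe at 6 days after breaker and mature green at approximately 39 days post-anthesis. The titles write O and G for the Nr groups, and these were taken as the late and green stages of the design. The labels give the tissue only as tomato, which peak lists without expression levels cannot check, and all RNA, input included, was treated with alkali to turn m1A into m6A before sequencing. In such bulk samples, fewer cells of a type and less RNA per cell cannot be told apart.

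ASR stands for abscisic acid, stress and ripening. ASR proteins are small, very hydrophilic plant proteins that accumulate when tissue loses water and when fruit ripens, and they have been described both as chaperone-like protectants and as DNA-binding proteins. Ripening in tomato depends on ethylene perception, which the Never-ripe receptor impairs. An m1A peak marks a stretch of RNA recovered by the antibody beyond the caller's background. It gives neither the methylated base nor the share of transcripts that carry it.

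The name of the cluster rests on ASR1. The lists give ASR1 its symbol, its NCBI gene number and the description of a fruit-ripening protein, and give Solyc04g071590 and Solyc04g071615 neither symbol nor gene number. In RefSeq's gene table, made on another assembly (SLM_r2.1), the genes Asr2, ASR3, LOC101247814, ASR1 and Asr4 follow each other on chromosome 4 in this order. Which of them the other loci correspond to was not determined. Coordinates below are 1-based positions on SL3.00, a build that appears in a scaffold name of the circRNA lists. The place of a peak in exons, introns or untranslated regions was not analysed here.

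ASR1 was called, that is, had at least 1 mRNA peak, in all 12 libraries, Solyc04g071615 in 2 and Solyc04g071590 in 0. Of the 1945 genes called in any library, 61 (3.14%) were called in all 12 and 257 (13.2%) in exactly 2. The loci were chosen by their listed peaks, with these calls known, so the counts describe them and test nothing. No other gene with an identifier from Solyc04g071500 to Solyc04g071700 had a listed mRNA peak, and no lncRNA peak lay within the span of the circle. A gain or loss was defined as calls in 2 or 3 libraries of a group and 0 of 3 of its counterpart, and 0 of the 3 loci met it. Among all called genes that rule took 2.98% for Nr O against Nr G, 2.47% for AC Br+6 against AC MG, 3.39% for Nr G against AC MG and 2.21% for Nr O against AC Br+6.

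**Figure D1:**
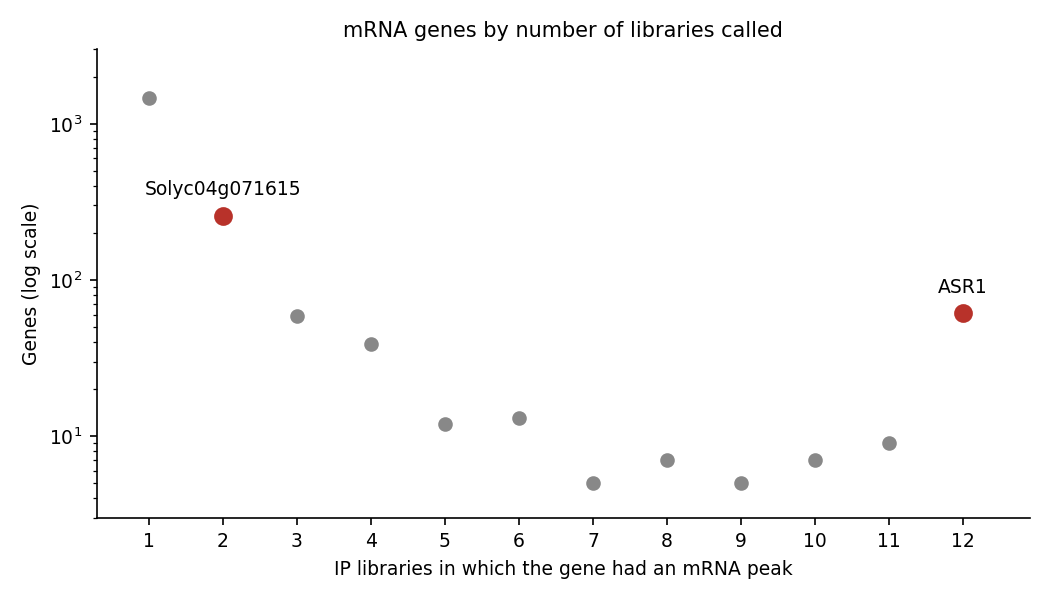
Number of mRNA genes (log axis) against the number of IP libraries in which a gene had a peak, with the points that hold ASR1 and Solyc04g071615 in red. ASR1 is among the 61 genes at 12 libraries and Solyc04g071615 among the 257 at 2, while Solyc04g071590 had no mRNA peak and is not plotted.

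The m1A signal of ASR1 lay in 2 separate blocks in 11 of 12 libraries and in 1 merged peak in AC MG replicate 3. In the mRNA lists the first block was the same 153 bases, chr4:58664498-58664650, in all 11 of these libraries. The second block began at base 58665339 in all 12 and ended at different bases. In the 11 libraries with both blocks, the lists left 688 bases between them. Of the 61 genes called in all libraries, 56 had exactly 1 peak in each, and 2 had at least 2 peaks in 11 or more. Those 2 were ASR1 and Solyc11g027665, a gene without a description that had 2 peaks in all 12.

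The circRNA lists showed the same ASR1 peaks with other edges. The circle (chr4:58638536-58672154, plus strand) has a predicted length of 33619 bases, which is its whole genomic span. All 25 of its peaks carried the same peak name and the same fold enrichment as an mRNA peak of the same library, 23 at ASR1 and 2 at Solyc04g071615. Only 1 of the 25 had the same start and end in both lists, and the other 24 were longer in the circRNA list. The mRNA lists thus hold a trimmed part of each of these 24 peaks, and the term full extent below means the interval of the circRNA list. All ASR1 peaks lay inside the circle, away from its ends; whether the circRNA lists shorten peaks in other ways was not tested. No peak of the circle was separate from the mRNA peaks, and its first 25746 bases, 76.6% of its length, held none in any library.

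**Figure D2:**
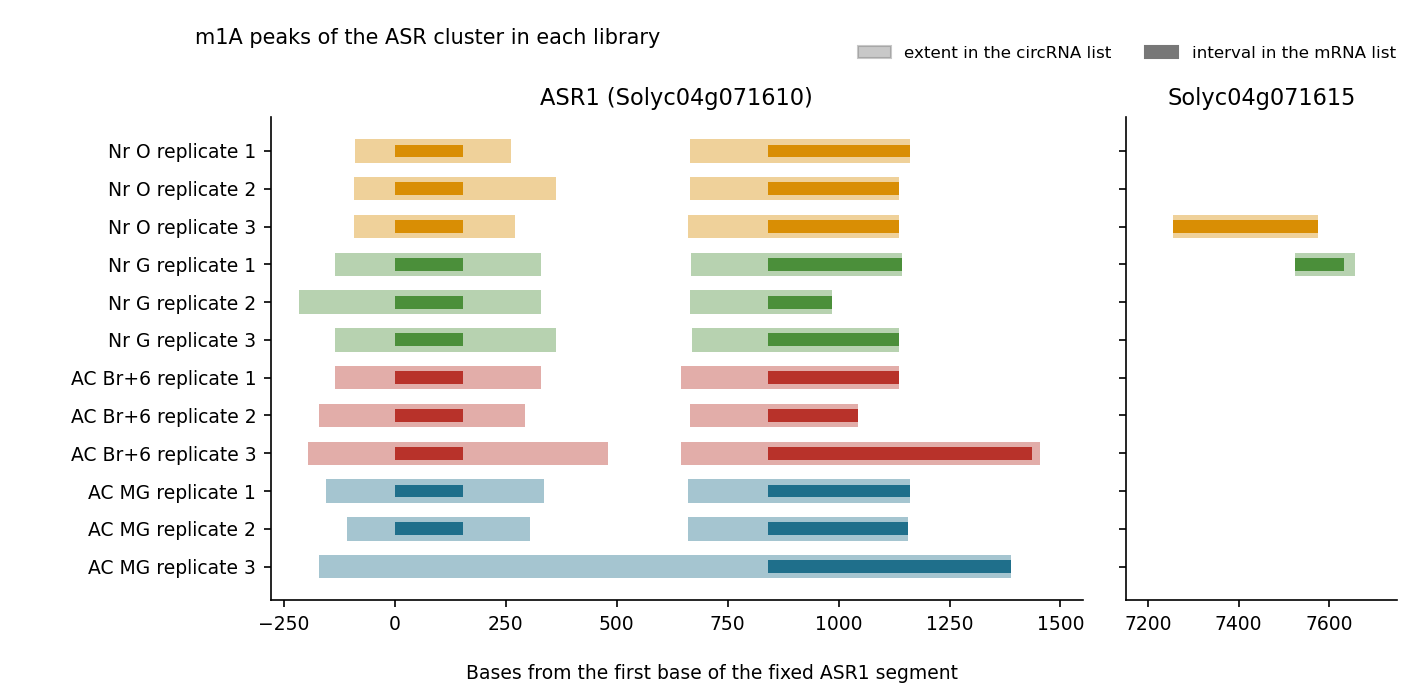
Peaks of ASR1 (left) and Solyc04g071615 (right) in each library, in bases from the first base of the fixed ASR1 segment; pale bars are the extents in the circRNA lists and dark bars the intervals in the mRNA lists, coloured by group. The dark first block is the same 153 bases in 11 libraries, and in AC MG replicate 3 a single pale bar spans both blocks while the mRNA list keeps only the second.

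At full extent the inner edge of the second block was the most constant one. Its start lay between 58665143 and 58665168 in the 11 libraries with 2 blocks, a spread of 25 bases. Its end ran from 58665482 in Nr G replicate 2 to 58665951 in AC Br+6 replicate 3, a spread of 469 bases. The first block started between 58664282 and 58664408 and ended between 58664759 and 58664977, with spreads of 126 and 218 bases. Its full length ranged from 352 to 676 bases, with a median of 464. Full lengths of the second block ranged from 321 to 809 bases, with a median of 477.

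The uncalled gap between the blocks varied with the library. It measured 402, 301 and 389 bases in Nr O replicates 1, 2 and 3, against 339, 335 and 307 in Nr G. In AC Br+6 it was 316, 370 and 165 bases, against 324 and 356 in AC MG replicates 1 and 2. The narrowest gap was in AC Br+6 replicate 3, and AC MG replicate 3 had none: its peak ran from 58664326 to 58665885. The mRNA list of that library kept 547 of the peak's 1560 bases and dropped the other 1013, the whole first block among them.

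Fold enrichment is the authors' ratio for a peak, with 50 as its highest value in the lists, and it is given here as a description without a test between libraries. The second block stood at 18.12, 26.11 and 26.43 in Nr O replicates 1, 2 and 3, against 27.65, 15.58 and 28.19 in Nr G. It stood at 28.16, 26.29 and 23.69 in AC Br+6, against 26.71 and 28.10 in AC MG replicates 1 and 2. Of these values, 9 lay between 23.69 and 28.19, and Nr O replicate 1 and Nr G replicate 2 were the low ones. Group means were 23.6 ± 4.71 in Nr O, 23.8 ± 7.13 in Nr G, 26.0 ± 2.24 in AC Br+6 (SD, n = 3 each) and 27.4 ± 0.983 in AC MG (SD, n = 2). In each of the design's comparisons the groups overlapped.

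The first block stood at 16.76, 17.67 and 23.24 in Nr O, against 22.15, 33.98 and 21.56 in Nr G. In AC Br+6 it stood at 21.35, 22.57 and 22.81, against 22.05 and 21.63 in AC MG replicates 1 and 2. Nr O replicates 1 and 2 were the lowest and Nr G replicate 2 the highest, and the groups overlapped here as well. Group means were 19.2 ± 3.51 in Nr O, 25.9 ± 7.01 in Nr G, 22.2 ± 0.783 in AC Br+6 (SD, n = 3 each) and 21.8 ± 0.297 in AC MG (SD, n = 2). The merged peak of AC MG replicate 3 had a fold enrichment of 25.29.

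Within a library the second block was the more enriched in 10 of 11 libraries. The log2 ratio of second to first averaged 0.16 ± 0.45 (SD, n = 11), a mean smaller than the spread between libraries, with a median of 0.28. Nr G replicate 2 was the exception at -1.12, with 15.58 for the second block and 33.98 for the first. That library had the shortest second block in the series, 144 bases in the mRNA list and 321 at full extent. Its first block reached furthest upstream of all the 2-block libraries.

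**Figure D3:**
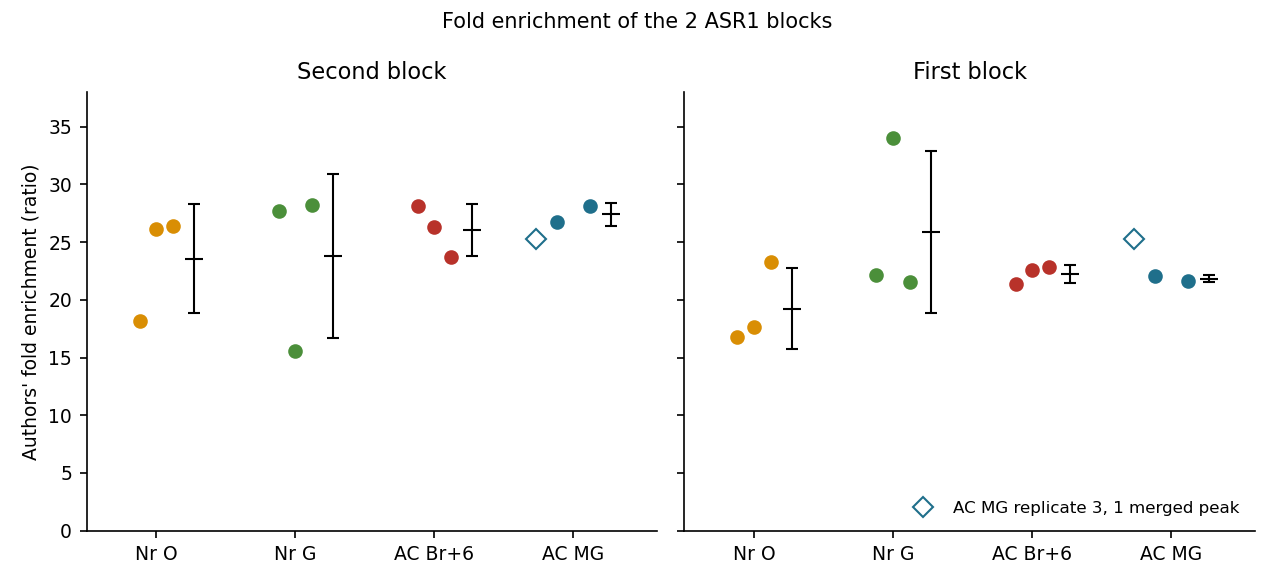
Authors' fold enrichment of the second (left) and first (right) ASR1 block in each library by group, with points for libraries, black bars for mean ± SD of the libraries with 2 blocks, and an open diamond for the merged peak of AC MG replicate 3, shown in both panels. Nr G replicate 2 stands apart in both panels, at 15.58 in the second block and 33.98 in the first.

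ASR1 was called throughout, at middling fold enrichments. In their own lists, the second-block peaks exceeded between 45.5% and 72.7% of peaks in fold enrichment, and the first-block peaks between 44.4% and 70.5%. Of the 23 ASR1 peaks, 21 were above the median fold enrichment of their list. Among the 61 genes called in all 12 libraries, ASR1 ranked 37 by the median over libraries of its highest fold enrichment, 26.6 against a median of 36.4 over those genes. It ranked 4 by covered length, with a median of 452 bases against 184 over the 61 genes.

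Peak scores, which equal -10 times the log10 of the peak's p-value, were lower for ASR1 in some late libraries than in any green one. In late fruit 5 of 12 ASR1 peaks had a score of 3100 or more, against 11 of 11 in green fruit, where each was exactly 3100. Peaks of the same library are not independent, and peaks tied at 3100 cannot be ordered. Whether 3100 is a limit of the caller was not tested. The 6 Nr O peaks had scores of 343.89 and 323.76 in replicate 1, 3100 for both peaks of replicate 2, and 2171.33 and 2114.27 in replicate 3, against 3100 for all 6 Nr G peaks. In AC Br+6 the scores were 2052.47 and 3131.4 in replicate 1, 1047.36 and 1448.23 in replicate 2 and 3100 for both peaks of replicate 3, against 3100 for all 5 AC MG peaks. Over whole mRNA lists, the share of peaks at 3100 or more ran from 21.6% to 45.0% in late libraries and from 28.2% to 36.9% in green ones. A score depends on read numbers, which the lists do not give, and no test was made. The part of sequencing depth or RNA level in the difference was not tested.

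Covered length, the number of bases in the union of a gene's peaks in the mRNA list of a library, was compared over libraries to ask whether the stretch of ASR1 listed as enriched changed with stage or genotype. ASR1 peaks covered 474, 449 and 449 bases in Nr O replicates 1, 2 and 3, against 455, 297 and 449 in Nr G. They covered 449, 356 and 747 bases in AC Br+6, against 474, 468 and 547 in AC MG. For AC MG replicate 3 the 547 bases leave out the first block, which its mRNA list dropped. The other 11 libraries count that block, so this value is not a like measure. In those 11 libraries the listed first block was always 153 bases, and the second always began at the same base. Covered length there varied only with the end of the second block, and could not show a change at the other edges. AC Br+6 replicate 3 was the longest and Nr G replicate 2 the shortest, and both stage comparisons overlapped. Every Nr G library lay below every AC MG library. Groups were fully apart in that comparison for 9 of the 217 genes tested (4.15%), ASR1 included. The share was 5.07% for Nr O against Nr G, 0.922% for AC Br+6 against AC MG and 3.23% for Nr O against AC Br+6, where the ASR1 values overlapped.

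No comparison of covered length passed. The green, AC and AC MG values below count AC MG replicate 3 without its first block. Late fruit averaged 487 bases and green fruit 448, a difference of 39 bases (exact permutation test over libraries, two-sided, p = 0.625; adjusted p = 1 over the 217 genes called in at least 3 libraries). Nr averaged 429 bases and AC 507, a difference of -78 bases with an exact permutation p of 0.295 (adjusted p 1). The stage difference was 57 bases in Nr and 21 in AC, and these differed by 36 bases with an exact permutation p of 0.835 (adjusted p 1). For the same 3 comparisons, 1.84%, 3.69% and 1.38% of the 217 genes had an unadjusted exact p at or under 0.05, and 0 genes passed after adjustment. The smallest p these tests can give is 0.005, at which a gene could not pass alone over 217 genes, so the adjusted values say little about ASR1. Its unadjusted exact permutation p-values for these 3 comparisons, 0.295 at the lowest, were above 0.05 as well. That does not show that its covered length was constant. The difference between Nr G and AC MG, -96 bases, had an exact permutation p of 0.1, the smallest that 3 against 3 libraries can give (adjusted p 1).

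Full extents gave a different order of lengths. ASR1 peaks spanned 850, 929 and 841 bases in Nr O, against 939, 866 and 965 in Nr G. They spanned 956, 846 and 1485 bases in AC Br+6, against 993, 909 and 1560 in AC MG. The longest were AC MG replicate 3 and AC Br+6 replicate 3, and the groups overlapped in all 4 comparisons, Nr G against AC MG included. The difference between Nr and AC was -226.5 bases (two-sided exact permutation p 0.115, not adjusted, as this measure was added after seeing the data). Leaving out 1 library at a time, it ran from -289 (without AC Br+6 replicate 2; unadjusted exact permutation p 0.025) to -125 (without AC MG replicate 3; exact p 0.225). It was -288 without AC MG replicate 2 (exact p 0.025) and -129 without AC Br+6 replicate 3 (exact p 0.23). Between late and green fruit the difference was -54.2 bases, opposite in sign to that of the trimmed intervals (exact permutation p 0.465). That sign rested on single libraries, as the difference was 47.3 bases without AC MG replicate 3 and 8.25 without AC Br+6 replicate 2. Of each library's full extent, between 44.2% and 65.7% lay outside the mRNA-list intervals.

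List lengths stood beside these values as follows. The mRNA lists held 108, 151 and 129 peaks in Nr O, against 377, 233 and 360 in Nr G, and 188, 236 and 854 in AC Br+6, against 688, 220 and 308 in AC MG. AC Br+6 replicate 3 had both the longest list and the longest trimmed cover. AC MG replicate 1 had the next longest list and an ASR1 cover within the range of the others. The part of list length in ASR1 cover was not tested. As a percent of a library's summed covered length, ASR1 ranged from 0.354% in AC MG replicate 1 to 2.35% in Nr O replicate 1. On that scale the difference between Nr and AC was 0.513 percentage points, opposite in sign to that in bases (exact permutation p 0.1, adjusted p 0.286).

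**Figure D4:**
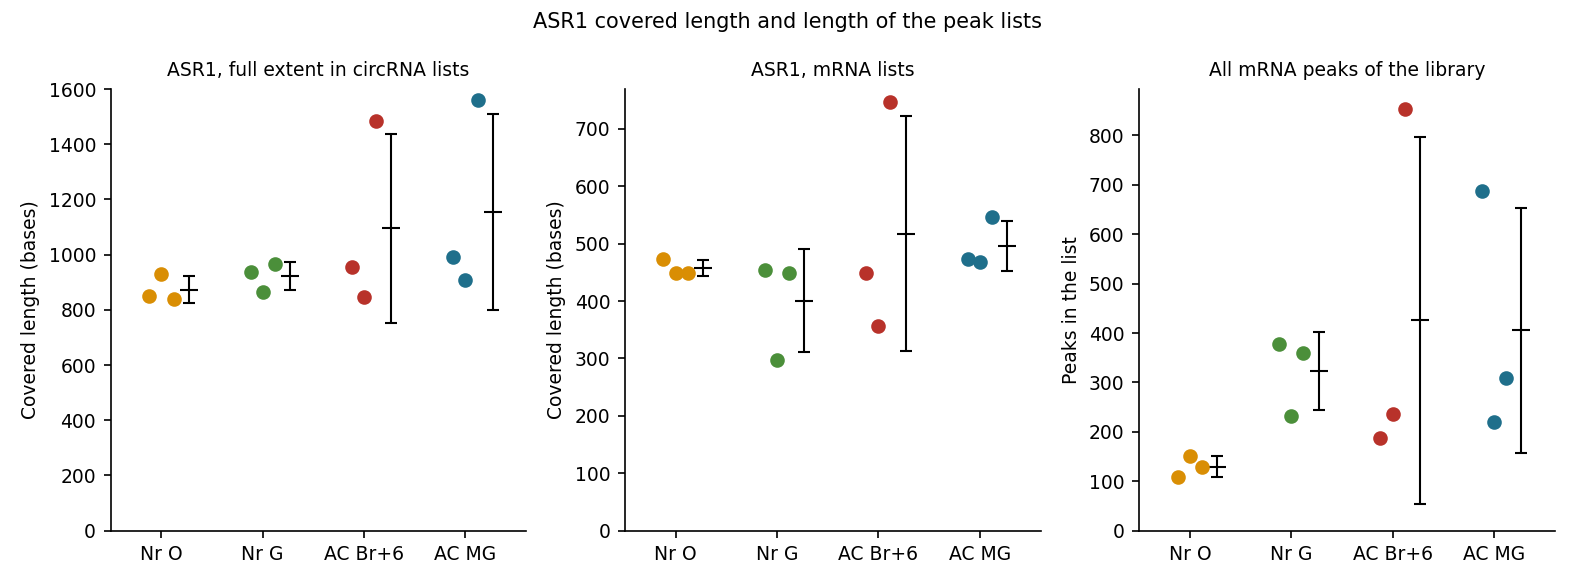
Bases covered by ASR1 peaks at full extent (left) and in the mRNA lists (middle), and number of peaks in each mRNA list (right), by group; points are libraries and black bars mean ± SD (n = 3). At full extent AC MG replicate 3 and AC Br+6 replicate 3 stand above the other 10 libraries, and in the mRNA lists AC Br+6 replicate 3 stands highest at 747 bases.

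Solyc04g071615 had peaks in Never-ripe libraries, 1 at each stage. In Nr O replicate 3 the peak covered chr4:58671753-58672072, 320 bases, with a fold enrichment of 2.51 and a score of 14.55. In Nr G replicate 1 it covered chr4:58672023-58672130, 108 bases, with a fold enrichment of 17.25 and a score of 1054.64. The end of the Nr O interval overlapped the start of the Nr G interval. In the circRNA list the Nr G peak was 132 bases long and ended at base 58672154, the last base of the circle, so a longer peak may have been cut there. The Nr O peak exceeded 7.75% of its list in fold enrichment and the Nr G peak 56.5%. The other 4 Nr libraries and the 6 AC libraries listed no peak there, and with calls in 2 libraries no difference between genotypes can be shown.

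Solyc04g071590, the listed host of the circle, had no mRNA peak of its own in 12 libraries. Its circle was among 10 of 38 circles with peaks in all 12 libraries, and 2 circles had more peaks. As its peaks are those listed for ASR1 and Solyc04g071615, that count repeats the ASR1 calls. Whether these peaks come from circular or linear RNA was not tested. The share of the circle covered by peaks was 2.53%, 2.76% and 3.45% in Nr O, against 3.19%, 2.58% and 2.87% in Nr G. It was 2.84%, 2.52% and 4.42% in AC Br+6, against 2.95%, 2.70% and 4.64% in AC MG. Those shares repeat the ASR1 extents, with Solyc04g071615 added in Nr O replicate 3 and Nr G replicate 1.

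The genes most like ASR1 in covered length over the 12 libraries were sought among the 35 other genes called in all of them whose length varied. They were Solyc04g081500, which encodes a member of the BRISC and BRCA1-A complex, and the undescribed Solyc09g010870 and Solyc03g043620. Their Spearman correlations with ASR1 were 0.68, 0.67 and 0.57 (n = 12 libraries), against a median of 0.20 over the 35 genes. These were the highest values of the 35, picked for that reason. The length of Solyc04g081500 was nearly constant, from 135 to 153 bases, against 297 to 747 for ASR1, so its ranks rest on few bases and on ties. All of these lengths share the same libraries and list lengths. For Solyc04g071615, 1 gene had the same calls in all 12 libraries, the undescribed Solyc04g082970.

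Since ASR genes respond to abscisic acid and water loss, other genes with such words in their descriptions were counted. The word list found 7 genes with a peak in any library, and 6 of them were called in 1 library only, too few for a gain or loss as defined above. Of the 7, 6 were described as protein phosphatase 2C genes, and the seventh was a dehydratase subunit that matched by spelling alone. In the protein phosphatase 2C family, clade A members are known to hold back abscisic acid signalling. The descriptions give no clade, and whether any of the 6 belongs to clade A was not checked. The gene for probable protein phosphatase 2C 55 (Solyc12g089090) had peaks in all 3 libraries of Nr O against 2 of Nr G, and in all 3 of AC Br+6 against 2 of AC MG. Its peaks all began at base 65195283 of chromosome 12, with fold enrichments from 2.30 to 6.50. Of all 1945 called genes, 1471 (75.6%) were called in exactly 1 library. The 6 word-list genes of that kind included probable protein phosphatase 2C 46 (Solyc01g111730) in Nr G replicate 2 and probable protein phosphatase 2C 33 (Solyc05g055790) in AC MG replicate 1. No gene described as a dehydrin, a late embryogenesis abundant protein or an abscisic acid receptor had a peak. The search read descriptions only. It could not find genes without one, and it did not find ASR1 itself, described as a fruit-ripening protein.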

How the data were processed

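The series holds 24 samples, 12 IP and 12 input libraries, and only IP libraries have peak lists. Per the labels' protocols, RNA was fragmented, immunoprecipitated, treated with alkali and made into whole-RNA libraries. Per the submitters' processing notes, cutadapt 1.9.3 and HISAT2 2.0.4 were used; peak names begin with MACS, and the sources used here give no settings, control or build for the caller. The 36 deposited lists, 12 each for mRNA, lncRNA and circRNA, were assigned to IP libraries by the genotype, stage and replicate in their names. The deposited fold enrichment is a ratio and the deposited score is -10 times a log10 p-value, both per the file headers. The deposited FDR reads 100 throughout and was not used. Sequencing depth is unknown, so no interval or floor is given.

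Loci were matched by the start of the transcript identifier, and mRNA and circRNA peaks by library and peak name. Covered lengths of all genes called in at least 3 libraries were compared by two-sided exact permutation tests over libraries, with stage exchanged within genotype or genotype within stage (400 arrangements, smallest p 0.005), or 3 against 3 libraries (20 arrangements). P-values were adjusted by Benjamini-Hochberg over 217 genes. The code was tested on simulated data. Python 3.11.15, numpy 2.4.6, scipy 1.17.1 and pandas 2.3.3 were used. Named genes were the members, neighbours by identifier, the 3 genes most like ASR1, those with calls nearest to Solyc04g071615 and up to 5 genes of the word list. Members and lists were chosen with earlier results of these data known. Solyc11g027665 was named after its values were seen.

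Alternatives were the median fold enrichment as a minimum, lists of equal length, the longest peak, a percent scale, log2(length + 1), each library left out, and replicate numbers as a block. Between same-numbered libraries, correlations of deviations from group means over genes ran from -0.14 to 0.19, with 4 of 18 pairs over 0.1. Differently numbered pairs were not set beside them, so whether same-numbered libraries share a batch was not tested.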

Additional observations from a re-analysis of the deposited data

How the results depend on the processing

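The comparisons of 3 against 3 libraries could not pass under any alternative, as their smallest p is 0.1, and at the stratified tests' smallest p of 0.005 a gene could not pass alone, so calls say nothing of stability. The lowest adjusted p was 0.178, for late minus green on the percent scale (0.681 percentage points, unadjusted exact permutation p 0.035), where list length enters the divisor. With lists of equal length, 108 peaks each, AC Br+6 minus AC MG became -70 bases and Nr O minus AC Br+6 became 189. Late minus green became 168, Nr O minus Nr G 406, Nr G minus AC MG -287, Nr minus AC -49.2 and the difference in stage effect 476 bases. ASR1 then kept a peak in 8 libraries, so 0 of the 3 loci were called in all 12, against 1 with full lists. It had none left in Nr G replicates 1 and 3, AC Br+6 replicate 3 and AC MG replicate 1. Their full lists, of 377, 360, 854 and 688 peaks, were the longest of the series. Those libraries entered as 0 bases, so the differences with lists of equal length mix dropped peaks with lengths. With the longest single peak AC Br+6 minus AC MG was -30 bases, and as log2 of length plus 1 it was -0.0076. On the percent scale Nr minus AC was 0.513 and Nr O minus AC Br+6 was 1.11 percentage points. At full extent, chosen after seeing the data, late minus green was -54.2, AC Br+6 minus AC MG -58.3 and Nr O minus Nr G -50 bases; the first of these became -151.5 when AC Br+6 replicate 3 was left out and 47.3 when AC MG replicate 3 was. The cause of these changes of sign was not tested, beyond what each alternative's construction shows.

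Leaving out 1 library at a time, late minus green ran from -18.4 (without AC Br+6 replicate 3) to 79.3 bases and Nr minus AC from -118 to -20.6. The Nr minus AC difference in stage effect had its lowest value, -44.7, when AC Br+6 replicate 2 was left out and its highest, 151, when replicate 3 of that group was. AC Br+6 minus AC MG ran from -93.8 to 102, Nr O minus Nr G from 5.33 to 84.3, Nr G minus AC MG from -123 to -44.3 and Nr O minus AC Br+6 from -141 to 54.8. With replicate numbers as a block the differences are the same by construction, for example 39 bases for late minus green (exact sign-flip p 0.438) and -78 for Nr minus AC (exact p 0.281). Between 2 groups, 3 pairs cannot give a p under 0.25. Counting any overlap of at least 1 base, 25 circle peaks were also mRNA peaks, against 1 with the same start and end. Depth and the control behind each list, which the lists do not hold, limit what covered length can show.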

Other observations

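Listing 1 peak under both an mRNA and a circle was not limited to the ASR cluster. Over all lists, 211 of 434 circRNA peaks (48.6%) had the same peak name in the mRNA list of their library. Of these 211, 18 had the same start and end in both lists, 152 were longer in the circRNA list and 41 were longer in the mRNA list. For ASR1 the listed interval and the full extent gave opposite signs for late minus green, 39 and -54.2 bases, but without AC MG replicate 3 the full extent gave 47.3.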
